A study of Mus musculus with 617 samples.

Results

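Neuronal cytoskeleton genes are described here as 10 genes named by symbol: Tubb3, Map2, Dcx, Mapt, Stmn2, Stmn3, Stmn4, Nefl, Nefm and Gap43. They are 10 of the 43628 gene IDs in each table, and all 10 were found by their Ensembl ID. Expression was measured in 617 single mouse cells in 13 groups. Cells of the ES, Epi and motor neuron cultures came from 2 embryonic stem (ES) cell lines, a male and a female one, of a cross of a CAST/EiJ male with a C57BL/6J female. The lines were grown as ES cells in 2i and LIF (60 female and 51 male cells) or in serum and LIF (68 and 52 cells), or turned into Epi (epiblast-like stem) cells with Activin A and FGF2 (79 and 63 cells). Motor neurons were made from the same lines by way of embryoid bodies treated with retinoic acid and SAG, a smoothened agonist (39 female and 35 male cells), a procedure that by the submitters' account also yields several interneuron types. A separate table held 41 cells of a female Epi culture kept for 7 passages. Embryo cells came from the same cross at E3.5 (23 cells of the inner cell mass, ICM) and E4.5 (23 epiblast cells), with no sex given, and from C57BL/6J embryos at E5.5 (20 female and 63 male epiblast cells).

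Neurons carry long processes whose shape rests on bundles of microtubules, on neurofilaments and, at the growing tip, on a membrane-bound growth cone. Tubb3 encodes a neuronal beta-tubulin, Map2, Mapt (tau) and Dcx (doublecortin) encode proteins that bind and stabilise microtubules, and the stathmin family members Stmn2, Stmn3 and Stmn4 bind free tubulin and promote microtubule turnover. Nefl and Nefm encode the light and medium subunits of neurofilaments, and Gap43 encodes a growth cone protein of extending axons. Several of these genes are used as stains for newly made neurons.

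Promoter sequence was available from the RefSeq table (GRCm38.p6) for 4 of the 10 genes, Tubb3, Map2, Dcx and Stmn3. It is shown because these genes were highest in the same cells while their upstream sequence differed in CpG content. Each line gives the bases just before the annotated start, 5′ to 3′ on the gene's strand, with CpG dinucleotides in capitals. The windows are, in order, chr8:123411303-123411423 (plus strand), chr1:66175079-66175272 (plus), chrX:143933312-143933469 (minus) and chr2:181314501-181314750 (minus).
Tubb3: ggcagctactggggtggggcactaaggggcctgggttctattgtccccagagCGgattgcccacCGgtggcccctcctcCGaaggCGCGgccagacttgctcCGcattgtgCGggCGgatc
Map2: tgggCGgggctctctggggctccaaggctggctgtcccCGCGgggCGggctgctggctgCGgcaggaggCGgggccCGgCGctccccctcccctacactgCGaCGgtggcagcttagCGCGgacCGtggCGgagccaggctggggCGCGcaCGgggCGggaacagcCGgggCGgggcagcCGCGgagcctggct
Dcx: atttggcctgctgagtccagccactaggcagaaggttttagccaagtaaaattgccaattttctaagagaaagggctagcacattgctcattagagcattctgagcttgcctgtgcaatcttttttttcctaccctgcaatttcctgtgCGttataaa
Stmn3: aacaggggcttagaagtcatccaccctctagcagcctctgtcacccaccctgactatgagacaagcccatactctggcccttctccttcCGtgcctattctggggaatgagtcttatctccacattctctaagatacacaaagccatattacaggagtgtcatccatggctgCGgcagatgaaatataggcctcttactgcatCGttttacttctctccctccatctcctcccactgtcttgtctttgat

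The counts that follow are over windows of 250 bases before the RefSeq start, longer than the printed stretch for Tubb3, Map2 and Dcx. There, Map2 held 34 CpGs (observed over expected 0.857) and Tubb3 held 21 (0.732), above the median of 6 CpGs and 0.374 over 32851 windows of that length. Stmn3 held 3 CpGs (0.221) and Dcx also held 3 (0.279), below that median. The 6 letters CAGCTG (an E-box) were in none of these windows on either strand, against 13% of all windows. The GC box GGGCGG, searched on both strands, was in the windows of Tubb3 and Map2 and in 32.7% of all windows. The CCAAT box was in those of Tubb3 and Dcx and in 33.8% of all windows, and TATAAA was in that of Dcx and in 12.4% of all windows. The match in Tubb3 lies outside the shorter stretch printed above. A second RefSeq start of Dcx had TATAAA and no CCAAT box in its window. On the GRCm38 assembly (GENCODE vM21) the 10 genes lie on chromosomes 8 (Tubb3), 1 (Map2), X (Dcx), 3 (Stmn2), 2 (Stmn3), 14 (Stmn4, Nefl and Nefm), 11 (Mapt) and 16 (Gap43). The motif counts are matches of letters, not measured binding sites.

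Values were FPKM, fragments scaled to transcript length and library size, as deposited, and 1 value per culture was the mean over its cells. Cells of 1 culture are not replicates, so states were compared over cultures, with the female and male line as the 2 replicates of a state, and sex and line cannot be told apart. Nothing in the labels says that a state was cultured more than once per line, and p-values measure only the spread between these cultures. Cells had a median of 8122 to 10839.5 genes at 1 FPKM or more per group. The read depth behind each FPKM value is unknown. The median FPKM sum per cell was 1332433 and 1478624 in the female and male motor neuron cultures and 793153 to 961113 in the other 6 cultures of the first table. The part of that difference in the results below was not tested, but scaled values are given beside them. The culture labelled Epi, female, of the first table averaged 72.5 FPKM of Zfp42 and 19.9 of Esrrb, both genes of the naive ES state, against 77 and 18 in the female serum culture and 0.0687 and 0.243 in the male Epi culture. Results on Epi are therefore also given with the 7-passage culture in its place.

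All 10 genes had their highest mean in the motor neuron state, and for each the lower of the 2 motor neuron means was above the higher mean of the next state. The share of all tested genes with that order was not counted, so it cannot be said how particular it is to these 10. In a limma fit over the 8 cultures on the scale log2(mean FPKM + 1), 9 of the 10 rose between serum and motor neuron cultures (called where the adjusted p was below 0.05 and the log2 change was 1 or larger). Of all 15504 genes tested, 30.1% were called higher and 2.70% lower. The median log2 change of the 10 genes was 5.99, against 0.71 for all genes. Dcx and Stmn4 averaged under 1 FPKM over the 6 cultures that are not motor neuron and passed the filter on low values through the motor neuron cultures alone. Both are among the 9 called genes and count in the median of 5.99, so these 2 calls are not independent of the filter. Called genes split into 4669 higher and 419 lower (91.8% higher) as deposited, 2166 and 971 (69% higher) with every cell scaled to the same sum, 2570 and 855 (75% higher) with log values averaged over cells, and 1916 and 1747 (52.3% higher) with upper-quartile scaling. The median of all genes was then 0.14, 0.23 and -0.07. Under these 3 alternatives 9, 8 and 9 of the 10 genes were called, all higher, with a median change of 5.17, 3.97 and 5.09. Since the mean over cells rests on the few cells with high values, medians over cells were also compared, an alternative chosen after seeing the data, and 3 of the 10 were then called (Stmn3, Nefm and Gap43). Of all genes 10.2% were called with medians, 1173 higher and 409 lower.

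**Figure D1:**
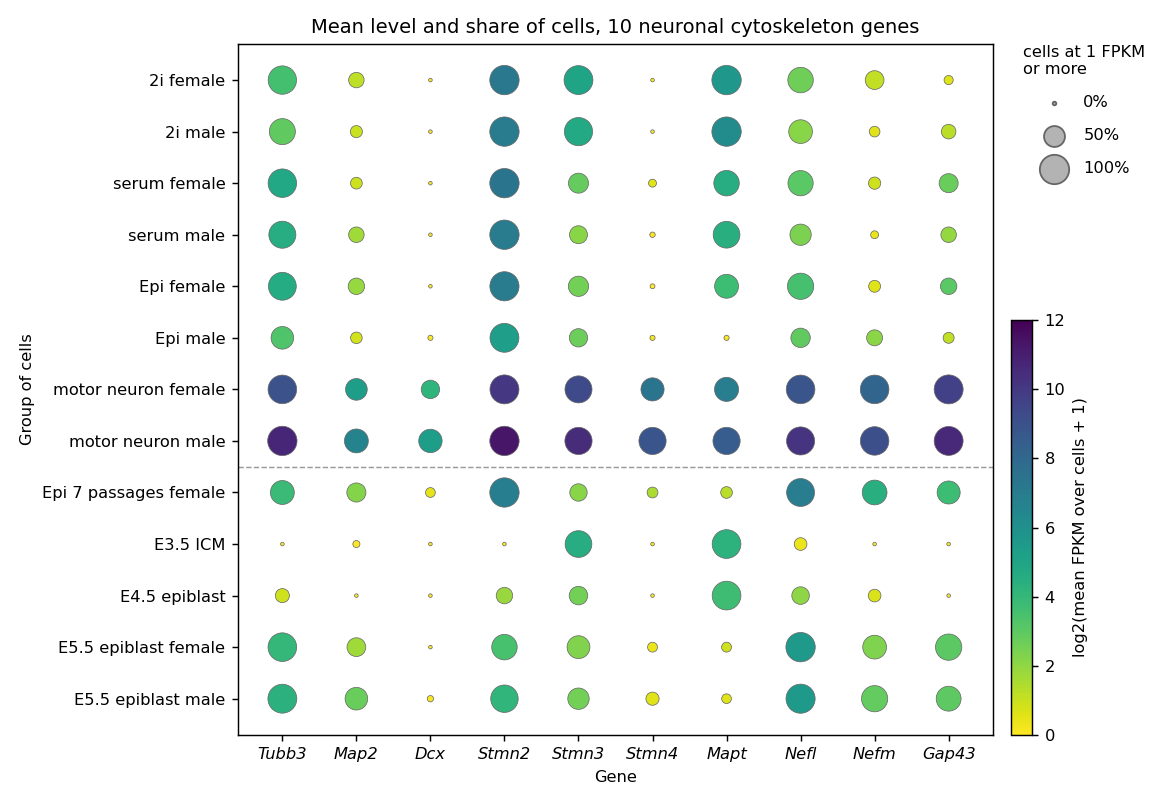
Mean level (colour, log2(mean FPKM over cells + 1)) and share of cells at 1 FPKM or more (dot area) for the 10 genes (columns) in the 13 groups (rows). Groups above the dashed line share a table, and those below come from other tables. The motor neuron rows are the darkest for every gene, while Stmn2, Mapt, Tubb3, Nefl and, in 2i, Stmn3 also have large dots among ES cells.

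Among the microtubule genes, Tubb3 averaged 26.9 and 21.6 FPKM in the female and male serum cultures and 501.4 and 1621 FPKM in the motor neuron cultures. Over the 39 female motor neuron cells its values ran from 0 to 3713 with a median of 31.2, and over the 35 male cells from 1.01 to 5982 with a median of 460.4. The female median thus lay near the serum medians of 18.1 and 11.2, while the top cells were far above every serum cell, the highest of which held 188 FPKM. The log2 change was 5.17 ± 0.66 (SE, 2 cultures per state, limma adjusted p = 0.00383). Map2, which marks dendrites, averaged 0.892 and 2.23 FPKM in serum and 40.5 and 98.8 in the motor neuron cultures. Its cell medians there were 1.84 and 42.2 and its highest cells held 550.3 and 452 FPKM, against serum medians of 0 in both cultures. It was at 1 FPKM or more in 53.8% and 65.7% of motor neuron cells and in 14.7% and 26.9% of serum cells. The log2 change was 4.70 ± 0.57 (adjusted p = 0.00352).

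Dcx averaged 0.00486 FPKM in the female serum culture, was listed at 0 in all 52 male serum cells, and averaged 17.3 and 40.4 FPKM in the motor neuron cultures. It reached 1 FPKM in 38.5% of female motor neuron cells (exact 95% interval 23.4 to 55.4) and in 62.9% of male ones (44.9 to 78.5). The log2 change was 4.78 ± 0.44 (adjusted p = 0.00233). Dcx passed the filter on low values only through the motor neuron cultures, so this test was not independent of its high values there. In the 4 ES cultures Dcx was the scarcest of the 10 along with Stmn4, and it reached 1 FPKM in no cell there (exact upper limits 5.28% to 6.98% per culture). Among male Epi cells 1 of 63 reached that level.

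Mapt was the exception among the 10. Its means were 22.2 and 20.9 FPKM in serum and 124.4 and 359 in the motor neuron cultures, with cell medians of 13.6 and 93 in the latter and of 15.2 and 15.8 in serum. The ranges of culture means did not overlap, yet the log2 change of 3.24 ± 1.13 did not pass the test (adjusted p = 0.0669). Over 20 alternative settings it was called in 4, with adjusted p from 0.00719 to 0.706. It was called when either Epi culture was left out (adjusted p = 0.0146 for each) or when the 7-passage culture stood in for the female Epi culture (0.00719), and in the fit of the 4 cultures compared alone (0.0255). The female and male Epi cultures differed more in Mapt than the replicates of any other state, as described below, and all states share 1 estimate of the spread.

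The 3 stathmin family genes started from very different levels. Stmn2 averaged 167 and 129 FPKM in serum and 1134 and 2559 in the motor neuron cultures. Its female motor neuron cells ran from 0 to 7053 with a median of 84.3, below the female serum median of 119.3, and its male cells from 3.74 to 8916 with a median of 291. Only the upper cells stood apart from serum, where the highest cell held 632 FPKM. The log2 change of 3.53 ± 0.60 passed the test (adjusted p = 0.00763), but not without the female serum culture (0.0501), without the male serum culture (0.0562), with averaged log values (0.162) or with medians (0.854). Stmn3 averaged 6.09 and 3.35 FPKM in serum and 634 and 1447 in the motor neuron cultures, with cell medians of 28.3 and 299.9 there against 0.261 and 0.131 in serum. It rose by 7.43 ± 0.44 (log2, adjusted p = 0.00211) and was called in all 20 alternatives. Stmn4 averaged 0.471 and 0.0817 FPKM in serum and 167 and 459.8 in the motor neuron cultures. It was at 1 FPKM or more in 61.5% of female and 85.7% of male motor neuron cells, against 5.88% and 1.92% of serum cells, and rose by 7.79 ± 0.50 (adjusted p = 0.00211). Like Dcx, Stmn4 passed the filter on low values only through the motor neuron cultures, so its test was not independent of its high values there.

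Both neurofilament genes rose. Nefl averaged 7.38 and 4.16 FPKM in serum and 454 and 1202 in the motor neuron cultures, with cell medians of 31.2 and 368 and highest cells of 3091 and 3803. The log2 change was 6.81 ± 0.53 (adjusted p = 0.00211). Nefm averaged 0.891 and 0.307 FPKM in serum and 277.2 and 554 in the motor neuron cultures, with cell medians of 16.7 and 117.6. Nefm was above 0 in every cell of both motor neuron cultures and rose by 7.97 ± 0.59 (adjusted p = 0.00211). In GENCODE vM21 the annotations of Nefl (chr14:68083863-68089095, plus strand) and Nefm (chr14:68082590-68124846, minus strand) overlap, and whether the counting used strand is not given in the sources used here, so reads from the shared stretch could not be told apart. Gap43, the growth cone gene, averaged 5.68 and 2.84 FPKM in serum and 843 and 1559.6 in the motor neuron cultures. It was at 1 FPKM or more in 97.4% and 97.1% of motor neuron cells against 41.2% and 26.9% of serum cells, and rose by 7.82 ± 0.69 (adjusted p = 0.00221).

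The motor neuron cultures were mixed. Cells were called neuron-like when the mean log2(FPKM + 1) of 11 neuron markers that are not among the 10 genes (Elavl2, Elavl3, Elavl4, Syt1, Snap25, Syn1, Tagln3, Gng3, Celf4, Myt1l and Rbfox3) was at least 5, a value set after seeing the data. This gave 7 of 39 female cells (17.9%, exact 95% interval 7.54 to 33.5) and 15 of 35 male cells (42.9%, 26.3 to 60.6), and 1 female and 4 male cells lay between 3 and 5. Such a class is a range of a score, not a type. The labels describe motor neurons, and among neuron-like cells Isl1, a motor neuron transcription factor, was at 1 FPKM or more in 7 of 7 female and 14 of 15 male cells. The vesicular acetylcholine transporter Slc18a3 was at that level in every neuron-like cell, and Chat, which makes acetylcholine, in 5 of 7 and 12 of 15. Mnx1 was found in 3 of 7 and 3 of 15, and Isl2 in only 1 of 7 and 3 of 15. Lhx3, Gad1 (inhibitory neurons) and Slc17a6 (excitatory neurons) were listed at 0 in every neuron-like cell. In the 32 female and 20 male remaining cells the counts were 2 and 6 for Isl2, 0 and 2 for Mnx1 and 0 for Chat. For Isl1 they were 10 and 8, and for Slc18a3 5 and 7. These genes were chosen after the data were analysed. The remaining 32 female and 20 male cells held a median of 3 and 8 of 12 endoderm markers at 1 FPKM or more, such as Sox17 and Dab2, against 1 and 4 in the neuron-like cells. The summed FPKM of the 12 ran from 0 to 1467 and from 205 to 5023 in remaining female and male cells, and from 0 to 116.7 and from 4.81 to 379 in neuron-like ones, where Apoa1 was at 0 in both cultures. Both classes of female cells held pluripotency markers, with a summed FPKM of 7 such genes from 20.4 to 6245 (median 372) in remaining and from 26.1 to 485.5 (median 207.6) in neuron-like cells. In male cells the medians were 12.2 and 8.15. Of 7 mesenchyme markers, remaining and neuron-like female cells held a median of 3 and 2 at 1 FPKM or more. Their summed FPKM had a median of 262.7 (up to 13525) in remaining and 130.9 (up to 1192) in neuron-like female cells. Male cells held a median of 1 in each class, with summed medians of 54.4 and 86.6. In a culture mean, fewer neuron-like cells and less RNA per cell cannot be told apart.

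The 10 genes followed this split. Every neuron-like cell had all 10 at 1 FPKM or more, while the remaining cells had a median of 7 (female) and 8 (male). In the whole cultures 12 of 39 female and 21 of 35 male cells had all 10, so some remaining cells had them too. The mean log2(FPKM + 1) of the 10 genes ran from 9.34 to 10.58 in female and from 9.53 to 10.80 in male neuron-like cells. In the remaining cells it ran from 1.11 to 7.55 with a median of 3.65 (female) and from 0.87 to 9.21 with a median of 4.77 (male). The 2 ranges of this mean did not overlap in either culture, though the male ones lay close. Ranges of single genes did overlap, by 1 or 2 remaining cells each. This was so for Stmn4 in female cells and for Tubb3, Dcx, Mapt, Nefl, Nefm and Gap43 in male cells. The 7 female neuron-like cells held between 71.2% (Gap43) and 95.1% (Dcx) of their culture's summed FPKM of each gene. For the 15 male ones this was between 89.2% (Gap43) and 95.6% (Stmn4).

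**Figure D2:**
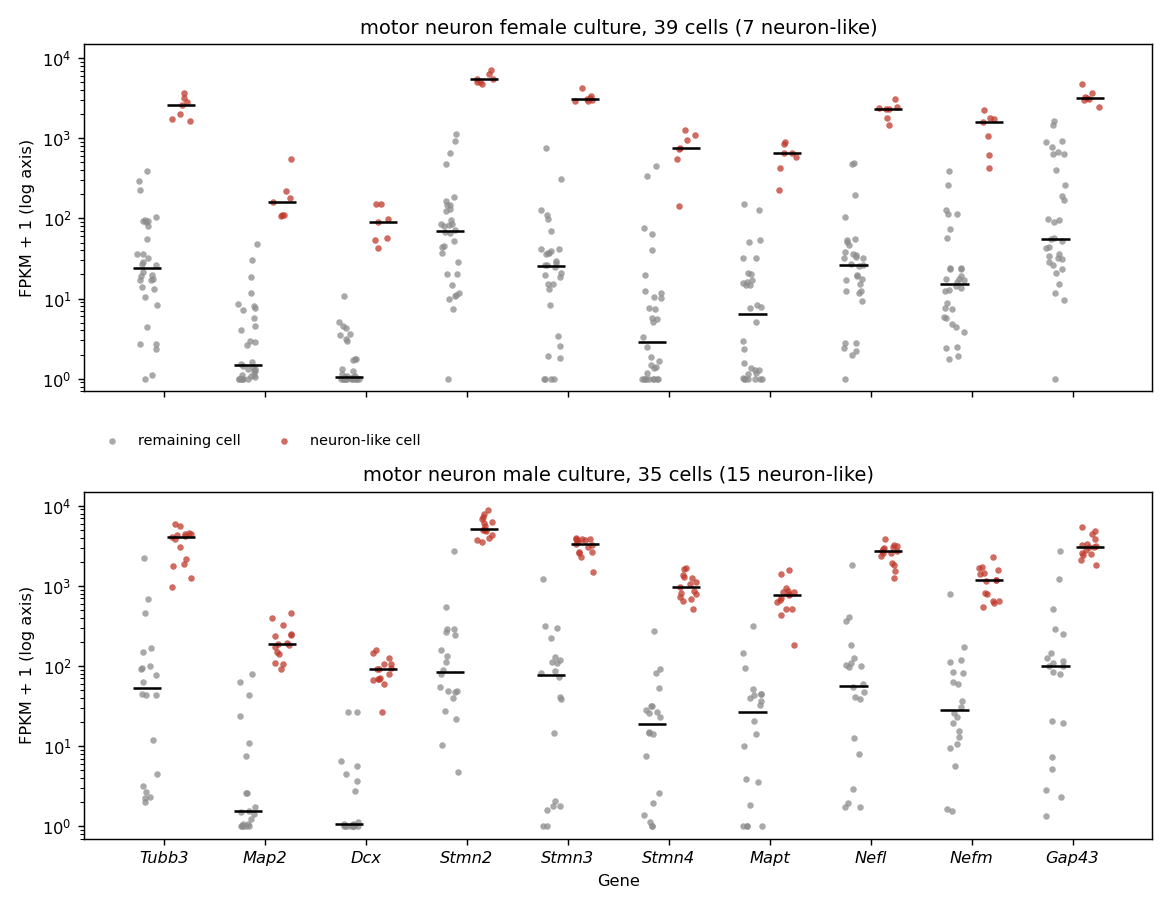
FPKM + 1 (log axis) of the 10 genes in every cell of the female (top) and male (bottom) motor neuron cultures, red for neuron-like and grey for remaining cells, with black bars at the medians. Red points lie above nearly all grey points, and for Stmn2 the red medians are 5474 (female) and 5177 FPKM (male).

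Within neuron-like cells the levels of the female and male cultures were close, with 1 culture each and no test. Tubb3 had a mean of 2531 ± 769 FPKM (SD over 7 cells) in female and 3499 ± 1565 (15 cells) in male neuron-like cells. Stmn2 had 5605 ± 827 and 5625 ± 1569, and Stmn3 had 3259.7 ± 477 and 3187 ± 722. Gap43 had 3344 ± 701.3 and 3248 ± 1027, and Nefl had 2261 ± 515 and 2569 ± 689.6. For Stmn2, Stmn3, Gap43 and Nefl the 2 means differed by less than either SD over cells, and for Tubb3 by more than the female SD, whereas the means over whole cultures were higher in the male culture for all 10. Among neuron-like cells the order of FPKM, which is per length, was led by Stmn2, with Dcx last at 91.5 and 89.6 and Map2 next at 204 and 215. Stmn2 and Stmn3 varied least from cell to cell in the female culture, with a coefficient of variation (SD over mean) of 0.147 and 0.146, and Map2 varied most, with 0.776. In the male culture the lowest was Stmn3 with 0.226 and the highest Map2 with 0.488.

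Lower levels remained in the other cells of these cultures. Among the 32 remaining female cells Stmn2 had a median of 68.8 FPKM and a mean of 156, close to its serum level, and Mapt had a median of 5.37, below its serum level. Gap43 had a median of 55.1 and a mean of 296, above both serum means, and its highest remaining cell held 1662 FPKM. That cell had 4332 genes at 1 FPKM or more, the fewest in the female culture. Nefm had a median of 14.2 and Stmn3 one of 24.4, against serum medians of 0 and at most 0.261. In the 20 remaining male cells the medians were 99.3 for Gap43, 27.4 for Nefm and 76.5 for Stmn3. Map2 and Dcx, by contrast, had medians of 0.496 and 0.0627 in female and 0.543 and 0.0603 in male remaining cells.

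Across the cells of a culture the 10 genes rose and fell together. Over all 45 pairs, the median Spearman rho was 0.69 in the 39 female cells (lowest 0.47 for Dcx and Gap43, highest 0.85 for Nefm and Gap43). In the 35 male cells it was 0.88 (lowest 0.81 for Tubb3 and Dcx, highest 0.96 for Mapt and Nefl). Within neuron-like cells alone the median was 0.21 (7 cells, 14 of 45 pairs below 0) and 0.18 (15 cells, 11 pairs below 0). In the remaining cells it was 0.44 (32 cells) and 0.78 (20 cells), with no pair below 0. These are descriptions with no test, since cells of a culture share their library preparation and differ in detected genes. The mean of the 10 genes had a rho of 0.28 and 0.48 with how many genes a cell expressed at 1 FPKM or more, and of 0.46 and 0.62 with the FPKM sum. The part of these in the pair values was not tested, but with cells scaled to the same sum the median was 0.69 and 0.89.

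**Figure D3:**
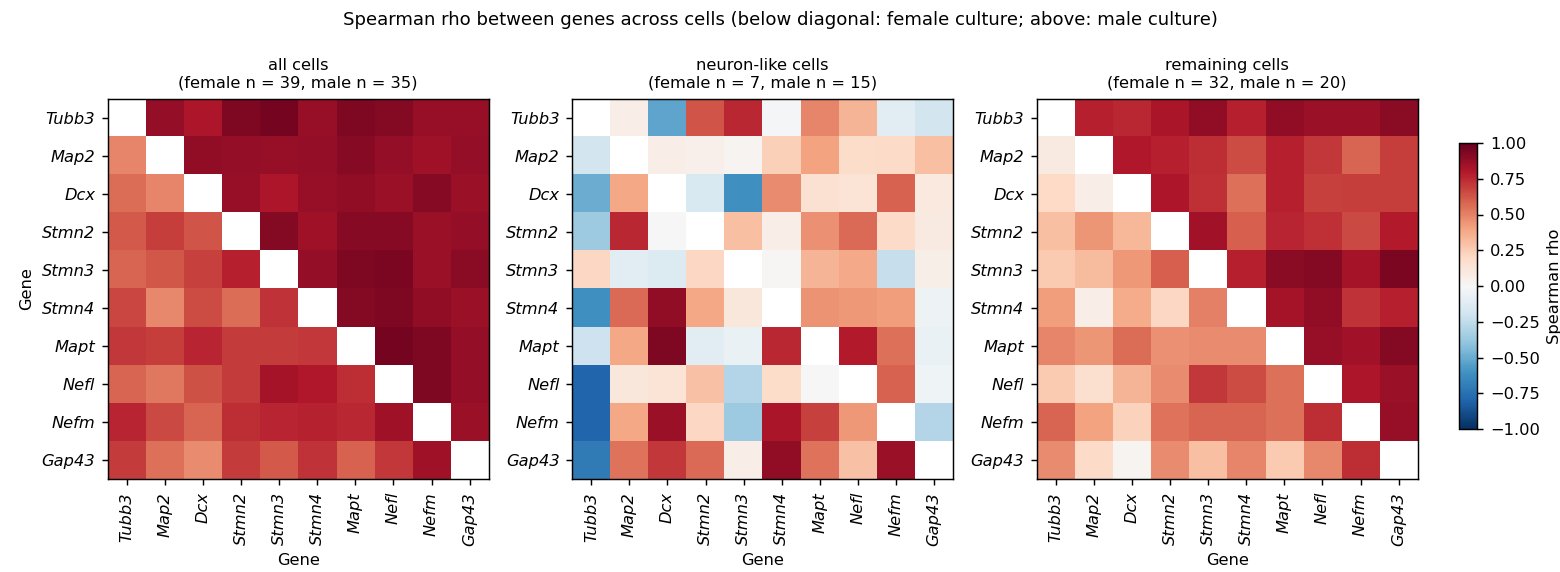
Spearman rho (colour from -1 to 1) between each pair of the 10 genes across all cells (left), neuron-like cells (middle) and remaining cells (right) of the motor neuron cultures, the female culture below the diagonal and the male above. All pairs are above 0 over all cells, while signs are mixed within the neuron-like cells, where the medians are 0.21 and 0.18.

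The mean of the 10 genes had a rho with the 11 other neuron markers of 0.84 (female) and 0.93 (male). With 12 endoderm markers rho was -0.59 and -0.80, and with 12 broadly expressed cytoskeleton genes (such as Actb and Tubb5) it was 0.19 and 0.55. Neuron-like cells lay apart from most others, but 1 female and 4 male cells had neuron marker scores between 3 and 5. In the male culture the mean of the 10 genes reached 9.21 in remaining cells, against 9.53 in the lowest neuron-like cell. These rho values therefore cannot separate the split between the classes from a gradient among cells. Among 8668 genes that averaged 10 FPKM or higher, the 8 whose rho with the mean of the 10 genes was highest, averaged over both cultures, were Tuba1a (0.90), Nnat (0.90), Map1b (0.89), Sncg (0.89), Uchl1 (0.89), Snhg11 (0.88), Dpysl5 (0.88) and Crmp1 (0.87). Tuba1a and Map1b are themselves a neuronal tubulin and a microtubule-associated protein.

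**Figure D4:**
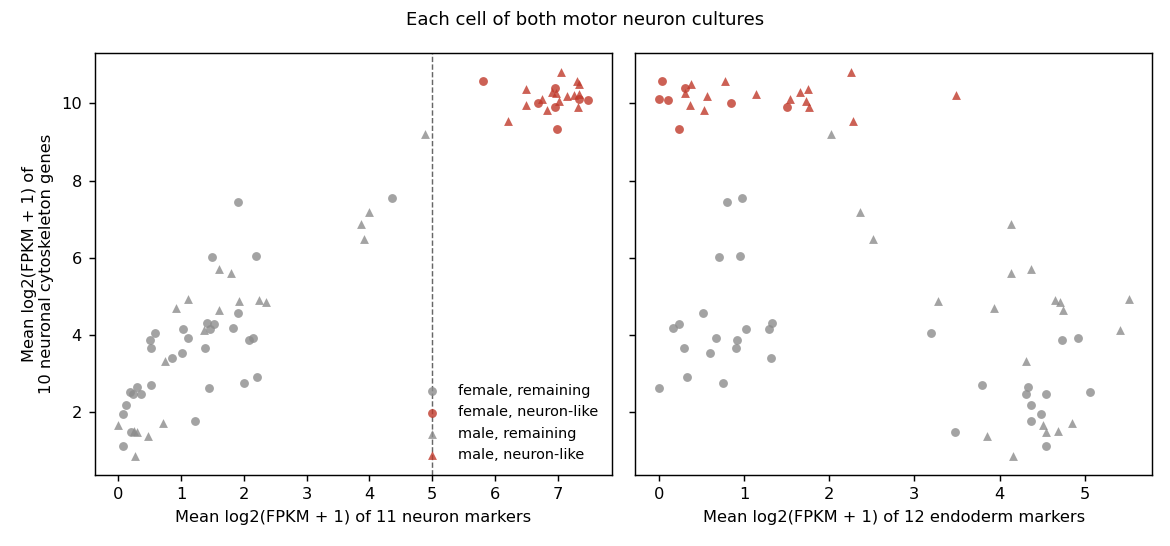
Mean log2(FPKM + 1) of the 10 genes (vertical axis) against that of 11 neuron markers (left) and 12 endoderm markers (right), 1 point per motor neuron cell, circles female and triangles male, red neuron-like. The dashed line marks the score of 5. Red cells sit above 9.3 on the vertical axis, and remaining female cells fall into a group with few and a group with many endoderm markers.

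Other genes of the neuronal cytoskeleton moved in the same comparison of motor neuron with serum. Of 20 other tubulins, microtubule-associated and collapsin-response genes, 17 rose and none fell (median log2 change 3.51), led by Tubb4a (6.25 ± 0.76), Dpysl3 (5.71 ± 0.42), Tubb2a (5.27 ± 0.44) and Map1b (5.08 ± 0.44). Tuba4a, Dclk2 and Camsap3 did not pass the test. Tuba4a stood at -1.52 and was called lower under both rescalings and with averaged log values, and near-identical tubulin genes may share reads. Of 3 other neuronal intermediate filament genes, Prph (peripherin, 5.44 ± 0.79) and Ina (2.94 ± 0.39) rose, and Nefh, the heavy neurofilament subunit, did not pass (0.96 ± 0.72). Of 12 growth cone and actin regulators 10 rose (median 3.46), led by Rtn1 (7.48 ± 0.90), L1cam (5.17 ± 0.79), Ncam1 (5.07 ± 0.60) and Ablim1 (5.07 ± 0.91). Of 9 tested axonal transport motors 8 rose (median 2.95), led by the kinesin genes Kif5c (4.66 ± 0.31), Klc1 (4.17 ± 0.38), Kif5a (3.94 ± 0.47) and Kif1a (3.53 ± 0.28). Enah and Fscn1 of the growth cone list and Kif5b of the motors did not pass, and Dync1i1 was under the filter on low values.

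The broadly expressed tubulins, actins and their partners changed less. Of 12, 7 rose, with a median of 1.03 against 0.71 for all genes, led by Map4 (2.57 ± 0.30), Stmn1 (1.57 ± 0.45), Actb (1.33 ± 0.31) and Tubb6 (1.28 ± 0.28). With cells scaled to the same sum 1 of them rose, and with upper-quartile scaling 1 rose and 1 (Tuba1b) fell, with a median of 0.12. Under the same upper-quartile scaling the counts were 12 of 20 for the tubulin and microtubule list, 9 of 11 for the growth cone list and 7 of 9 for the motors. Neuron markers rose in 9 of 10 tested cases (median 4.13), led by Tagln3 (6.70 ± 0.65), Snap25 (6.60 ± 0.52), Elavl4 (5.66 ± 0.83) and Syt1 (5.26 ± 0.48). Endoderm markers rose in 8 of 9 (median 5.48), led by Sox17 (7.31 ± 1.78), Dab2 (6.19 ± 0.86), Ttr (5.60 ± 0.74) and Foxa2 (5.58 ± 0.98). Of 4 tested neural progenitor markers Fabp7 rose (6.52 ± 1.03). Of 5 glia markers Pdgfra (4.24 ± 1.09), Aldh1l1 (2.26 ± 0.50) and Mbp (1.60 ± 0.49) rose and Olig1 fell (-2.74 ± 0.68), of 5 mesenchyme markers Acta2 rose (4.56 ± 0.84), and of 7 pluripotency markers Pou5f1 (-6.01 ± 1.55), Nanog (-5.04 ± 1.05) and Tdgf1 (-4.97 ± 1.20) fell. With cells scaled to the same sum, and likewise with upper-quartile scaling, 7 of 10 neuron markers and 8 of 9 endoderm markers rose. Of the 5 glia markers 1 rose under the first scaling and 0 under the second, Olig1 being called lower under both. Of the progenitor and mesenchyme lists 1 gene each rose under both, Pax6 of the former being called lower under the second, and Pou5f1, Nanog and Tdgf1 were called lower under both. All of these values are limma log2 changes with their SE, each with an adjusted p under 0.05 where a gene is said to have risen or fallen.

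Outside the motor neuron cultures, Stmn2, Mapt, Tubb3, Nefl and, in 2i, Stmn3 were at 1 FPKM or more in most ES cells. Stmn2 was at 1 FPKM or more in every cell of the 4 ES cultures, with means of 144.7 and 129 FPKM in 2i and 167 and 129 in serum. Cells in 2i ran from 38.3 to 323 FPKM (female) and 62.9 to 223 (male), whereas serum cells ran from 3.01 to 632 and 7.1 to 504.9, a wider spread around a like mean (SD over cells 52.1 and 38.8 in 2i, 150.9 and 103.8 in serum). Mapt was at that level in every 2i cell, with means of 48 and 74.3 FPKM, and in 75% and 82.7% of serum cells, with means of 22.2 and 20.9. Stmn3 was at that level in 96.7% and 92.2% of 2i cells, with means of 31.3 and 25.9 FPKM, and in 45.6% and 36.5% of serum cells. Tubb3 was at that level in 93.3% and 78.4% of 2i cells and 94.1% and 84.6% of serum cells, at means of 10.9, 6.7, 26.9 and 21.6 FPKM. Nefl was at that level in 75% and 64.7% of 2i cells and 73.5% and 51.9% of serum cells, at means of 3.41 to 7.38 FPKM, and Map2, Nefm and Gap43 had means of 0.307 to 5.68.

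Between serum and 2i, none of the 10 was called, and of all genes 0.0193% were. At an unadjusted p under 0.05 there was 1 of 10, Stmn3, against 9.99% of all genes. Stmn3 stood 2.41 lower in serum on the log2 scale (log2 change -2.41 ± 0.44, p = 0.00127, limma adjusted p = 0.133), in both lines (-2.19 and -2.63). It was called in 1 of 20 alternatives, the fit of the 4 ES cultures alone (adjusted p = 0.0418). Mapt had a log2 change of -1.43 ± 1.13 (adjusted p = 0.818), Tubb3 one of 1.39 ± 0.66 (0.582) and Gap43 one of 1.41 ± 0.69 (0.609), each with the same sign in both lines. The other 6 lay between -0.19 and 0.34.

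Between Epi and serum none of the 10 was called either, and of all genes 0.0387% were. None had an unadjusted p under 0.05, against 6.45% of all genes. Mapt had the largest change, -2.56 ± 1.13 (adjusted p = 0.727), and its lines differed in size, with -0.78 in the female and -4.34 in the male line. Its mean was 12.5 FPKM in the female Epi culture, with 65.8% of 79 cells at 1 FPKM or more, and 0.0759 FPKM in the male one, with 1 of 63 cells. In the 7-passage female Epi culture, from another table, it was 1.41 FPKM with 14.6% of 41 cells. When that culture replaced the first female Epi culture, Mapt had a change of -3.81 ± 0.59 and was called (adjusted p = 0.0219). In that fit 5.49% of all genes were called. The replacing culture differs in table and passages as well, and their part in this change was not tested. Stmn2 had -1.05 ± 0.60 (adjusted p = 0.727), with a mean of 126 FPKM in the female and 38.8 in the male Epi culture.

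In serum cells and in the first female Epi culture, Mapt had positive relations with Zfp42, Esrrb and Nanog, genes of the naive state, across cells. In female serum cells its rho was 0.60 with Zfp42, 0.60 with Esrrb and 0.59 with Nanog, and in male serum cells 0.47, 0.38 and 0.31. In the first female Epi culture, which kept those genes, the values for Mapt were 0.69, 0.67 and 0.53. With the other 4 pluripotency markers (Pou5f1, Dppa5a, Tdgf1 and Utf1) Mapt had a rho of 0.10 to 0.50 in female serum, -0.25 to 0.15 in male serum and 0.05 to 0.51 in the first female Epi culture. In 2i, where every cell had Mapt, its rho with all 7 lay between -0.22 and 0.27. Stmn2 behaved likewise in serum, with a rho of 0.53 and 0.64 with Zfp42 and of 0.56 with Mapt in each culture, and Stmn3 did not (0.12 and 0.21 with Zfp42). Zfp42, Esrrb and Nanog were singled out from 7 pluripotency markers after the values were seen, and the values are descriptions over cells that share a culture.

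The embryo cells showed another order, within tables that were normalised separately. Mapt and Stmn3 were the leading members in E3.5 ICM cells, with means of 18.6 ± 11.2 and 21.6 ± 20.6 FPKM (SD over 23 cells) and 95.7% and 82.6% of cells at 1 FPKM or more. Stmn2, so common in cultured ES cells, was listed at 0 in 22 of 23 ICM cells, and Tubb3 reached 1 FPKM in none of them (exact upper limit 14.8%). Dcx, Stmn4, Nefm and Gap43 were listed at 0 in all 23. At E4.5 Mapt stood at 12.3 ± 10.2 FPKM, Stmn3 at 4.83 ± 8 and Stmn2 at 2.55 ± 6.32. Mapt was rare at E5.5, with 0.861 and 0.479 FPKM and 10% and 9.52% of female and male cells, whereas Nefl stood at 46.1 ± 36.9 and 44.5 ± 40.6 FPKM in 100% and 98.4% of cells. Tubb3 was in 95% and 96.8% of E5.5 cells at 14.8 and 18.9 FPKM, and Gap43 in 80% and 71.4% at 7.06 and 6.96. The 2 sexes at E5.5 differed by less than the SD over cells in each of these, with no test. Endoderm markers were also present among E5.5 cells, a median of 10 (female) and 8 (male) of 12 per cell, and their part in these levels was not tested.

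**Figure D5:**
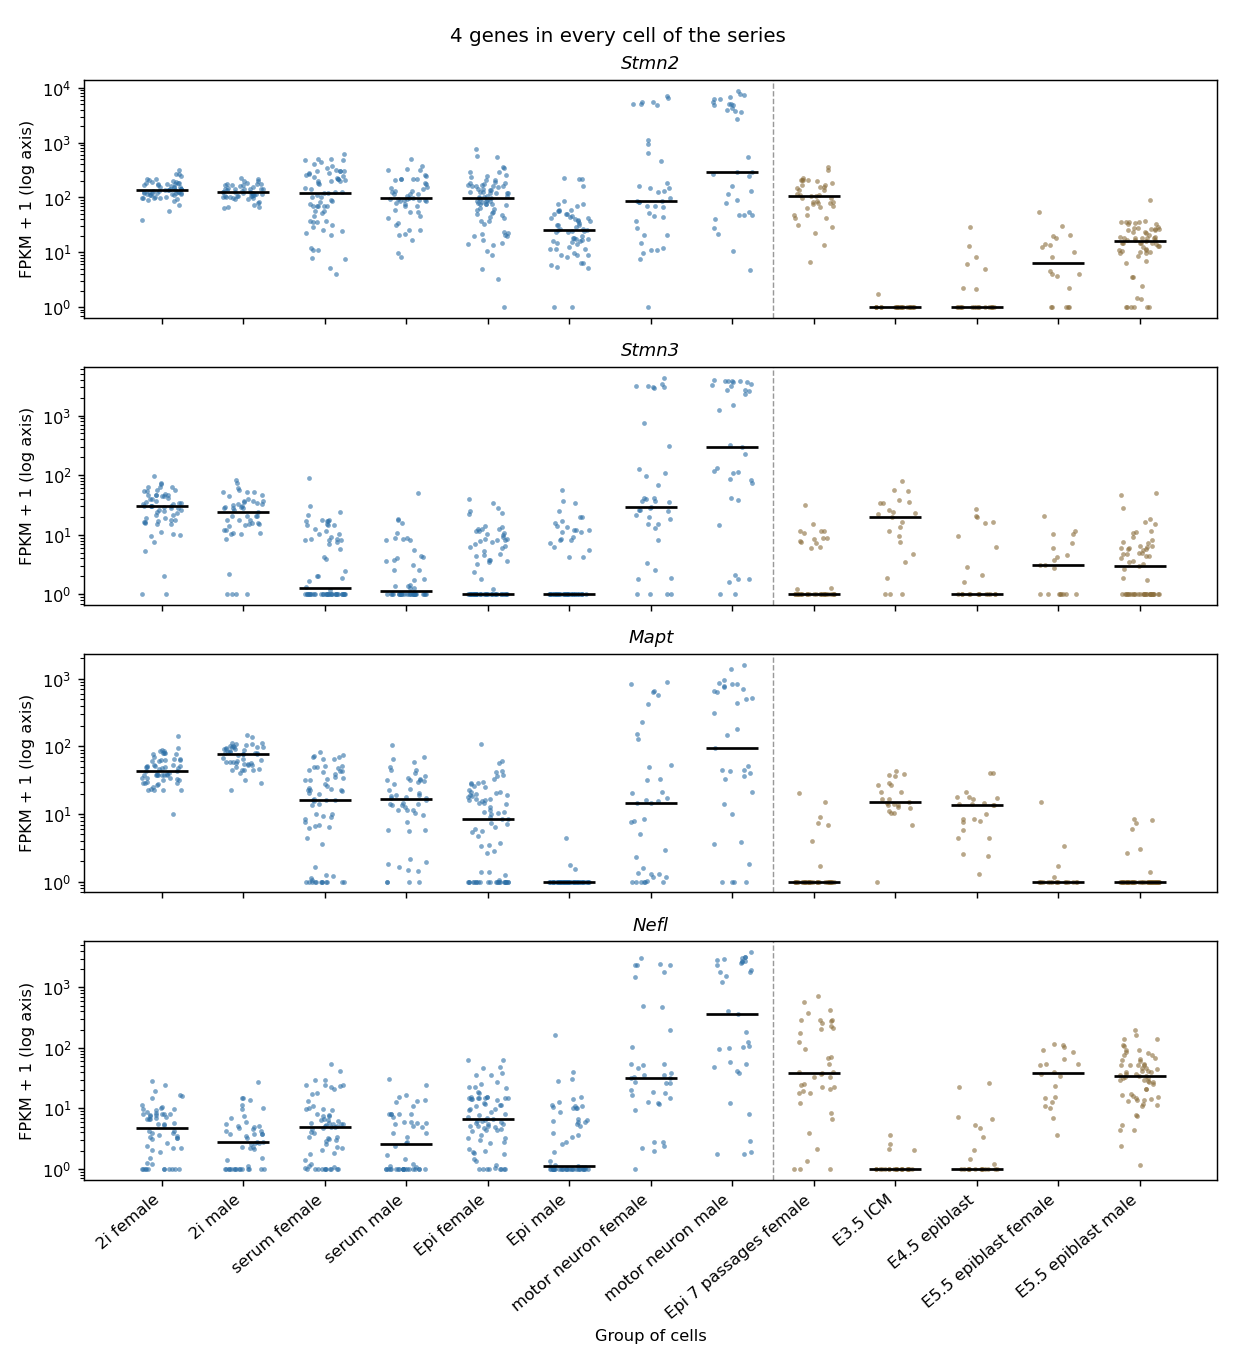
FPKM + 1 (log axis) of Stmn2, Stmn3, Mapt and Nefl in every cell of the 13 groups, with black bars at the medians. Blue groups share the first table, and brown groups come from other tables. Stmn2 is near 100 FPKM in most ES cells and at the floor in E3.5 ICM, the median of Mapt is at the floor in male Epi, 7-passage Epi and E5.5 cells, and Nefl has medians of 33.3 to 37.6 FPKM in E5.5 and 7-passage Epi cells.

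Nefl was also high in the 7-passage female Epi culture, with a mean of 124.6 ± 168 FPKM (SD over 41 cells), a median of 37.6 and 90.2% of cells at 1 FPKM or more. The first-table Epi cultures had 10.7 and 6.66 FPKM. Nefm followed it there at 20.2 ± 27.9 FPKM, against 0.518 and 3.25. Nefl had a rho with Nanog of 0.72 in the 7-passage cells and of 0.80 and 0.78 in the 20 female and 63 male E5.5 cells, and one with Nefm of 0.63, 0.51 and 0.59. In the female and male serum cultures Nefl had a rho with Nanog of 0.22 and 0.14. Nanog was picked here after the values were seen. Dcx and Stmn4 were at 1 FPKM or more in 9.76% and 12.2% of the 7-passage cells. At E5.5 these shares were 0% and 3.17% of female and male cells for Dcx and 10% and 19% for Stmn4.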

How the data were processed

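Single-cell cDNA was made with SMART-seq2 and turned into libraries with Tn5, per the labels' protocols. Per the submitters' processing notes, STAR 2.4.1, Cufflinks and Cuffnorm 2.2.1 were used with the mm10 build. The authors deposited 4 tables of FPKM values, 43628 gene IDs by 617 cells, which hold no counts, so the depth is unknown. The annotation, filters on cells and strand setting are not given in the sources used here. In the table of E3.5 and E4.5 cells, 356 values carried another character in place of the minus sign of the exponent and were read as small numbers (at most 9.7552e-05).

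The 10 genes, the gene lists and the tests were chosen with earlier results of these data known. Cells were averaged per culture, and limma 3.58.1 (R 4.3.3; trend, empirical Bayes) was fitted on log2(mean FPKM + 1) over the 8 cultures of the first table, with state as the only term, for the 15504 genes averaging at least 1 FPKM. Calls needed a p below 0.05 after Benjamini-Hochberg adjustment over these genes and an absolute log2 change of 1 or larger. All adjusted p-values in the text are from limma. The contrasts share the serum cultures. On simulated data, with 200 of the 15504 genes changed between serum and motor neuron cultures, 0%, 63% and 86% were recovered at log2 changes of 1.5, 3 and 5. In the data 32.8% of genes were called in that comparison, a far larger share. The adjustment is stricter where few genes change, so these rates do not carry over to the data. Shares of cells used 1 FPKM, with exact Clopper-Pearson 95% intervals that cover counting of cells only. Relations across cells are Spearman rho (SciPy 1.17.1, pandas 2.3.3) with no test.

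Both states of a line derive from the same ES line. Deviations of same-line cultures had a Pearson r of 0.06 to 0.16 over 15504 genes in the 6 pairs of states, and a fit with the line as replicate block was run as an alternative. The neuron marker list was used without 1 gene that is not reported here. From each list up to 4 called genes with the largest change in the same direction in both lines were named. Other alternatives were the pseudocount, filter, scaling, averaging over cells, each culture left out and the 7-passage Epi culture.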

Additional observations from a re-analysis of the deposited data

Results flagged for a closer look

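In the comparisons among undifferentiated states, 7 log2 changes went opposite ways in the female and male line, with 1 culture each, and this difference between the lines was not tested. Between serum and 2i, Map2 stood at -0.29 in the female and 0.73 in the male line, and Stmn2 at 0.21 and -0.00243. Between Epi and serum, Map2 stood at 0.96 in the female and -0.87 in the male line. Stmn3 stood at -0.29 and 0.59, and Stmn4 at -0.52 and 0.11. Nefm stood at -0.32 in the female and 1.70 in the male line, and Gap43 at 0.31 and -0.80. The culture labelled Epi, female, is the one that kept naive-state genes. No such opposite pair occurred between motor neuron and serum cultures.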

How the results depend on the processing

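Over 20 alternatives the 10 genes were all higher in motor neuron than in serum cultures, and 187 of 200 log2 changes kept their side of the test. Many of these settings cannot alter the log2 change itself, only its p-value or call. They are those that changed only the filter, the fold-change threshold, the line term or the 2i and Epi cultures in the fit. Their equal direction is therefore no added evidence. With medians over cells (chosen after seeing the data) 3 genes were called in place of 9, their median change was 3.95 in place of 5.99, and 10.2% of all genes were called in place of 32.8%. The median change was 3.97 with averaged log values and 7.36 with a pseudocount of 0.1, and 20.5% of genes were called with cells scaled to the same sum. The line as a replicate block gave 9 called members and 34.8% of genes between motor neuron and serum, 0% between serum and 2i and 0.0129% between Epi and serum, and changed no call of a member. Leaving out 1 culture at a time gave 8 to 10 called members, a median change of 5.22 to 6.76, and 10.6% to 36% of genes called, with 10.6% without the female and 12.1% without the male serum culture. The lone sample left in a state was assumed to vary like the other groups.

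Between serum and 2i 0.0193% of genes were called. The share was 0.738% with the 7-passage Epi culture, 3.02% with only the 4 cultures compared (where 1 member, Stmn3, was called), 1.44% with averaged log values, 1.69% with medians, 0.0797% with no filter, 0% with a pseudocount of 0.1, 0.0785% with the upper quartile, and 0% to 0.245% with 1 culture left out, where 0 members were called. Between Epi and serum 0.0387% were called. The share was 5.49% with the 7-passage Epi culture (where 1 member, Mapt, was called), 0.00706% with only the 4 cultures compared, 0.0774% with medians, and 0% to 2.17% with 1 culture left out (2.17% without female Epi), where 0 members were called.

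Some log2 changes that did not pass the test changed sign. Between serum and 2i, leaving out 1 culture gave Map2 -0.17 to 0.60, Dcx -0.00305 to 0.00394, Stmn2 -0.09 to 0.29, Nefl -0.02 to 0.68 and Nefm -0.46 to 0.07. Medians gave -0.00413 for Map2, -0.28 for Stmn2 and -0.01 for Nefl, and averaged log values gave -0.46 for Stmn2. Between Epi and serum, leaving out 1 culture gave Map2 -0.48 to 0.58, Stmn3 -0.20 to 0.50, Stmn4 -0.43 to 0.02, Nefm -0.05 to 1.44 and Gap43 -1.20 to 0.71. Map2 was at -0.02 with averaged log values and -0.05 with the upper quartile. The 7-passage culture gave -0.05 for Stmn3, 0.53 for Stmn4 and 0.11 for Gap43, and medians gave -0.26 for Stmn3 and -0.37 for Nefl. The cause of these shifts was not tested. Of 260 shares of cells at 0.1 or 5 FPKM, 77 left the interval of the share at 1 FPKM. In the motor neuron cultures, pair relations under other settings moved by less than the SD between the 2 cultures. So did means by run of title numbers, each set against the mean of its whole culture. The gap between the runs is another measure. By it Map2 in male cells stood out, with 124.7 and 64.4 FPKM in the lower and higher run against 98.8 and 40.5 in the male and female culture. In male serum cells the lower and higher run averaged 42 and 14.8 FPKM for Tubb3, 189.4 and 108.2 for Stmn2 and 27.1 and 18.8 for Mapt, gaps wider than those between the 2 serum cultures. FPKM values with no counts limit what can be said of genes near 0.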

Other observations

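Titles of motor neuron cells fell into a lower and a higher run of numbers. Neuron-like cells were 5 of 22 in the lower and 2 of 17 in the higher run of the female culture, and 9 of 20 and 6 of 15 in the male culture. What the runs stand for is not given in the labels.

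In male E5.5 cells, Map2 averaged 5.64 ± 7.94 FPKM (SD over 63 cells) and was at 1 FPKM or more in 58.7% of cells, against 2.27 ± 4.27 FPKM and 40% of 20 female cells. At E3.5 it reached that level in 1 of 23 cells and at E4.5 in none of 23 (exact upper limit 14.8%). These differences were not tested, since the labels do not say which cells share an embryo.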
